A study of Mus musculus with 10 samples.

Results

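The axon guidance ligands and receptors are the semaphorins and their plexin receptors, the ephrins and their Eph receptors, the Slit proteins and their Robo receptors, and the netrins and their Unc5 receptors. They were taken by a rule on gene symbols that uses no measured value, though these families were chosen with earlier results of the same data known, and 66 of the 20044 gene symbols of the deposited table belonged to them (83 of its 25152 gene entries). There were 35 ligands (20 semaphorins, 8 ephrins, 3 Slit genes and 4 netrins) and 31 receptors (9 plexins, 14 Eph receptors, 4 Robo genes and 4 Unc5 genes). Neural retina of C57BL/6j wild type mice was taken at embryonic stage E17.5 and at postnatal days 1, 7 and 15 (PN1, PN7, PN15), and ChIP-Seq for H3K4me2 or for H3K27me3 gave 1 library per mark and stage. Nuclei came from at least 20 pooled retinas, and no agent or transgene was involved. The sample labels have E17 as the embryonic stage in the titles and rd1/rd1 as the strain throughout, while the methods of the study give E17.5 and wild type mice for these 8 libraries and were followed. With 1 library for each mark and stage there was no replicate spread, no difference between stages could be tested, and counts of genes are given as descriptions beside the same counts over all gene symbols.

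Axon guidance cues are secreted or membrane-bound proteins that attract or repel growing axons, and in the retina they steer ganglion cell axons to the optic disc and sort them by position on their way to the brain. Semaphorins act through plexins, ephrins through Eph receptor tyrosine kinases, Slits through Robos, and netrins repel through Unc5 receptors and attract through Dcc. H3K4me2 is found at active and poised promoters and H3K27me3, the product of the Polycomb repressive complex, at repressed ones, and promoters that carry both are common among developmental genes.

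Each value is a normalized occupancy, the read sum within 2.5 kb on either side of a transcription start site (TSS), which the authors scaled to a library's mapped reads and rounded. The window has the same length for every gene, so levels of different genes in 1 library can be compared. Read numbers are not in the table and the depth behind each value is therefore unknown here. A mark was called present where the value was above the 99th percentile of 1047 olfactory receptor symbols in the same library. This background was 6, 9, 1 and 9.54 for H3K4me2 in stage order, and 33.5, 44.1, 40.5 and 41.5 for H3K27me3. A change between 2 stages is log2((later + 1)/(earlier + 1)) minus its median over all symbols, and it was called when it reached 2-fold and the larger value was above background. For E17.5 to PN15 that median was 0.13 for H3K4me2 and 0.00 for H3K27me3.

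The H3K4me2 library of PN7 stood apart from the others. In it 19.5% of all entries were at 0, against 0.362%, 0.509% and 2.52% at E17.5, PN1 and PN15, and the members' median value ranked at the 90.5th percentile of all symbols, against 73.9, 70.2 and 55.9. Among the H3K27me3 libraries, that of PN7 had 3.7% of entries at 0 and the others at most 0.159%. Statements on the developmental course therefore rest on E17.5 against PN15, and steps through PN7 are given with that limit. The H3K27me3 library of PN15 also differed from the earlier ones. Its sum over all entries was 590366, against 854731, 980808 and 790454 in stage order. Its olfactory receptor median was 10, against 7, 7 and 6. The part of this difference in the H3K27me3 changes to PN15 was not tested. The markers of the tissue moved over the same stages. The H3K4me2 sum of 5 rod genes (Sag, Nrl, Crx, Nr2e3 and Pde6b) went from 85 to 529 between E17.5 and PN15, that of 4 ganglion cell genes (Pou4f2, Isl1, Thy1 and Rbpms) from 211 to 80, and that of 3 progenitor and Mueller glia genes (Rax, Sox2 and Rlbp1) from 246 to 152. The H3K27me3 sums at E17.5, PN1, PN7 and PN15 were 71, 82, 51 and 47 for the rod genes, 995, 1310, 1113 and 534 for the ganglion cell genes, and 51, 131, 210 and 371 for the progenitor and Mueller glia genes. Single genes did not all follow these sums. At E17.5 and PN15 H3K4me2 was 105 and 110 in Rax and 26 and 24 in Thy1. H3K27me3 was 51 and 81 in Rbpms. Of the other cell types, 4 endothelial genes had an H3K4me2 sum of 139 and 79, mostly from Kdr, with Pecam1 at 0 at PN15. The sum was 13 and 10 for 3 blood and microglia genes. It was 59 and 70 for 3 pigment epithelium genes, mostly from Mitf, with Rpe65 and Tyr at 2 or below at both stages. In bulk retina, fewer cells of a type and less of a mark per cell cannot be told apart, and the part of this changing cell composition in the results was not tested.

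The members combined both marks more often than gene symbols did overall. H3K4me2 was above background at all 4 stages in 60 of 66 members (90.9%, against 65.3% of all symbols), at 1 to 3 stages in 4 (6.06% against 10.3%) and at no stage in 2 (3.03% against 24.4%). H3K27me3 was above background at all 4 stages in 19 members (28.8%, against 10.9% of all symbols), at 1 to 3 stages in 18 (27.3% against 9.21%) and at no stage in 29 (43.9% against 79.9%). Both marks were present in 26 members at E17.5 (39.4%, against 15.6% of all symbols), 25 at PN1 (12.9% of all symbols), 33 at PN7 (14.6%) and 29 at PN15 (43.9%, against 10.9%). The difference from all symbols was not tested. Only Plxnb3 and Robo4 had neither mark at any stage.

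**Figure D1:**
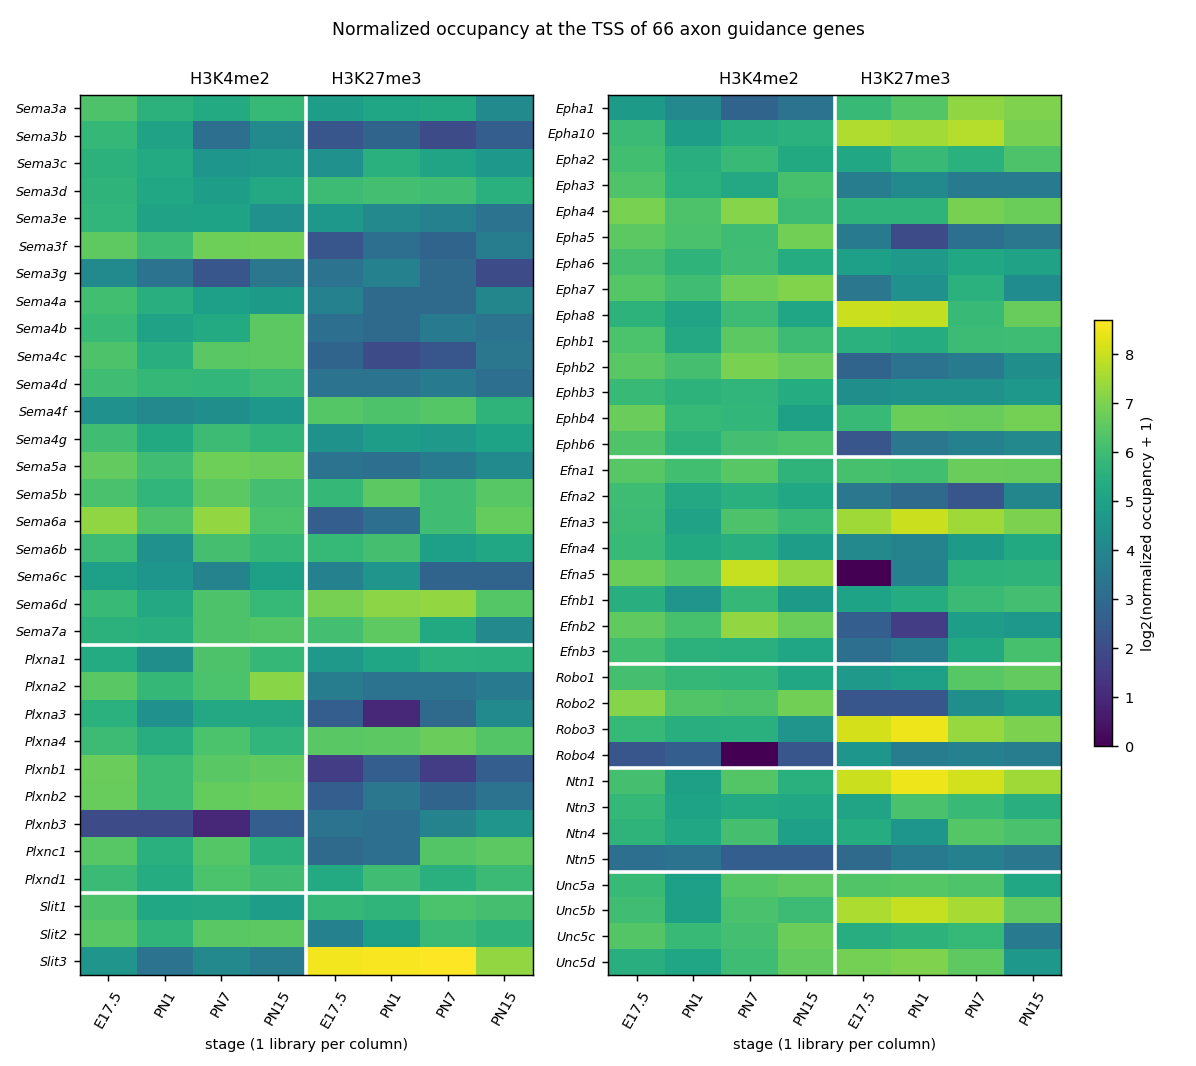
Normalized occupancy of H3K4me2 and H3K27me3 at the TSS of the 66 axon guidance genes (rows, by family) in the 8 libraries (columns, 1 per mark and stage), on a log2(value + 1) colour scale. Slit3 holds the highest H3K27me3 values (371 to 416 from E17.5 to PN7), and the H3K27me3 of the 4 Unc5 genes is lower at PN15 than at the 3 earlier stages.

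Promoter sequence was compared with these mark histories. The RefSeq promoters of GRCm38.p6 (250 bases before the start to 50 after it) covered 57 of the 66 members, and each was placed on mm9, the build of the deposited data, by an exact and unique match. The first listed promoter was used where a gene had several, and in Robo2 and Sema4d it lay 1035508 bp and 14047 bp from the nearest annotated start of the gene, outside a window of 2.5 kb around it. Those of 4 members are shown, because they stand for the 3 histories on which the results turn, namely loss of H3K27me3 (Unc5c), gain of H3K27me3 (Plxnc1 and Robo1) and neither mark (Robo4). The positions are chr3:141128278-141128577 on the plus strand for Unc5c, chr10:94407430-94407729 on the minus strand for Plxnc1, chr16:72663144-72663443 on the plus strand for Robo1 and chr9:37209307-37209606 on the plus strand for Robo4. CG dinucleotides are in capitals.
Unc5c: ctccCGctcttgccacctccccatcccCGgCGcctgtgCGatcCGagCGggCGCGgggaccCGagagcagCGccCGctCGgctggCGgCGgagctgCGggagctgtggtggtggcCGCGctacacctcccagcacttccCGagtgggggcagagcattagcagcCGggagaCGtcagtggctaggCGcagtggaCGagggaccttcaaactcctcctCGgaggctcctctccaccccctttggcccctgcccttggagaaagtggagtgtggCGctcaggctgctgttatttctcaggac
Plxnc1: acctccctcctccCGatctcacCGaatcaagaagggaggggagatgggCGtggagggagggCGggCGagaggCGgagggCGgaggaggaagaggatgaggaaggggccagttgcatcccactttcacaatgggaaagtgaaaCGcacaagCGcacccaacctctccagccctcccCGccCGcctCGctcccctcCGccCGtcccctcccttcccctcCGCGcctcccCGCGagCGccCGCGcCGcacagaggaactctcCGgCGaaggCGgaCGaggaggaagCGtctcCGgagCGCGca
Robo1: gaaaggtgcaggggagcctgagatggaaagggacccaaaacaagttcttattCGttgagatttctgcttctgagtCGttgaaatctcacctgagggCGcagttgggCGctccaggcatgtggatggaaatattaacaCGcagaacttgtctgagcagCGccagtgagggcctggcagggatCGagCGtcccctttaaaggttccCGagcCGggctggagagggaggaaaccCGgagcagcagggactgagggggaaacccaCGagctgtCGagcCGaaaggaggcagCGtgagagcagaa
Robo4: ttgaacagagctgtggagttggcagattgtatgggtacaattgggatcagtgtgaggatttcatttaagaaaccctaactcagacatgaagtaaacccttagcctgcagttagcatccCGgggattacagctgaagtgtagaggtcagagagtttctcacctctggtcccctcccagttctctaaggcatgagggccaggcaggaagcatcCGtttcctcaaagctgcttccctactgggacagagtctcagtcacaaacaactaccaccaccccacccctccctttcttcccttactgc
The 300 bases held 24 CG dinucleotides in Unc5c, 30 in Plxnc1, 15 in Robo1 and 2 in Robo4. Over the members the median was 22 (from 2 to 56), and over the 13966 symbols with a listed promoter it was 15. The median was 18.5 in the 16 members with H3K27me3 at all 4 stages, 28.5 in the 14 with H3K27me3 at 1 to 3 stages and 23 in the 25 with H3K4me2 but no H3K27me3. For all symbols the same groups had 17, 16 and 20. Without Robo2 and Sema4d the median was 23 over the members and 23 in the group without H3K27me3. Plxnb3 and Robo4, the members with neither mark, had 4 and 2, and the median of all symbols with neither mark was 2. Robo4, a receptor of blood vessel endothelium, had H3K4me2 values of 4, 5, 0 and 4, and Plxnb3 3, 3, 1 and 5. The letters TAATCC, the core of the sites bound by the photoreceptor factor Crx, were found on either strand in the promoters of 2 of the 57 members (Robo3 and Robo4, 3.51%), against 6.23% of all symbols. Another protein-coding gene started within 5 kb of a promoter in 2 of the matched members, 559 bp away for Efnb2 (4921522P10Rik) and 3825 bp away for Ntn3 (Tbc1d24), so reads of the neighbour can enter their values.

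From E17.5 to PN15 more members lost H3K4me2 than gained it, and H3K27me3 moved in both directions. H3K4me2 was called lower in 13 of the 66 members (19.7%, against 7.58% of all symbols) and higher in 1, Unc5d (2.67% of all symbols). Of the 14705 symbols whose larger value was above background, 10.3% were lower and 3.65% higher. The median change of the members was -0.40, and 50 of 66 lay below the median of all symbols. H3K27me3 was called higher in 11 members (16.7%, against 1.88% of all symbols) and lower in 8 (12.1%, against 7.42%), with a median of 0.41. Only in 35 members and 3819 symbols was the larger H3K27me3 value above background, so that a change could be called. Of these symbols 9.87% were called higher and 39.0% lower. Without the requirement on background, 20 members were higher by 2-fold, against 12.2% of all symbols, and 11 were lower (16.7%), close to the 16.1% of all symbols.

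The size of a change depended on the level of the mark. Among symbols with a mean H3K27me3 of at least 200 at the 2 stages, the median change was -1.24 over all 582 symbols and -1.15 over the 3 members (Slit3, Robo3 and Ntn1). Between 100 and 200 it was -1.02 over all symbols and -0.77 over 5 members. Strongly marked genes thus had lower values at PN15 in general, inside and outside the guidance genes. Between 40 and 100 the median was -0.34 over all 1656 symbols, of which 34.7% were above 0, and 0.61 over 21 members, of which 14 were above 0. For H3K4me2 between 40 and 80, the median was 0.07 over all symbols and -0.48 over 36 members, of which 31 lay below the value of all symbols. At 80 or more it was 0.25 over all symbols and 0.07 over 16 members.

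**Figure D2:**
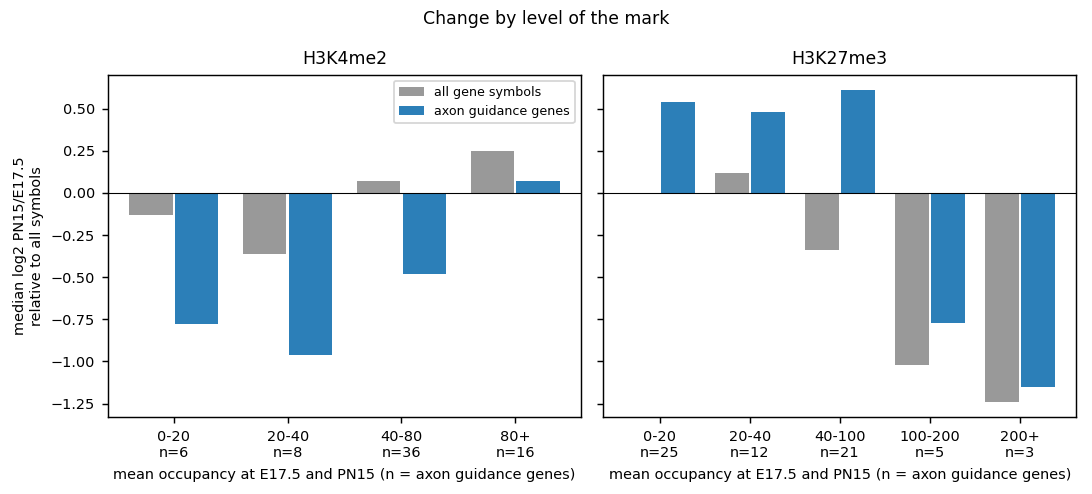
Median log2 change between E17.5 and PN15, relative to the median of all symbols, by the mean occupancy of the mark at both stages, for all gene symbols (grey) and the axon guidance genes (blue, number under each pair), left H3K4me2 and right H3K27me3. The bars of the guidance genes lie above those of all symbols for H3K27me3 between 40 and 100 (0.61 and -0.34) and close to them at 200 or more (-1.15 and -1.24).

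In 6 members H3K4me2 was called lower and H3K27me3 higher, namely Efnb3, Epha1, Epha4, Ephb4, Robo1 and Sema6a, and 106 of all symbols did so (0.529%). Without centring on the median of all symbols the H3K4me2 calls of Efnb3, Epha4 and Robo1 were lost, and with 5 added to the values those of Efnb3 for H3K4me2 and Ephb4 for H3K27me3 were lost. The opposite exchange was called in Unc5d, and in 115 of all symbols (0.574%). Both marks were lower in Robo3 (1.21% of all symbols) and no symbol had both higher. By presence of the marks, 9 members went from H3K4me2 alone to both marks (Efna5, Efnb1, Efnb3, Ntn3, Plxna1, Plxnc1, Robo1, Sema6a and Slit2), as did 1.65% of all symbols. H3K27me3 went from above to below background with H3K4me2 kept in 5 members (Sema6b, Sema7a, Unc5a, Unc5c and Unc5d), and in 4.55% of all symbols. In Sema6b the change was not called (-0.62), and its value of 36 at PN15 is below the background of that stage (41.5) but above that of E17.5 (33.5). Across the members the changes of the marks had a Spearman rho of -0.134 (n = 66 genes, which share the same 4 libraries), and across all symbols it was -0.11.

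**Figure D3:**
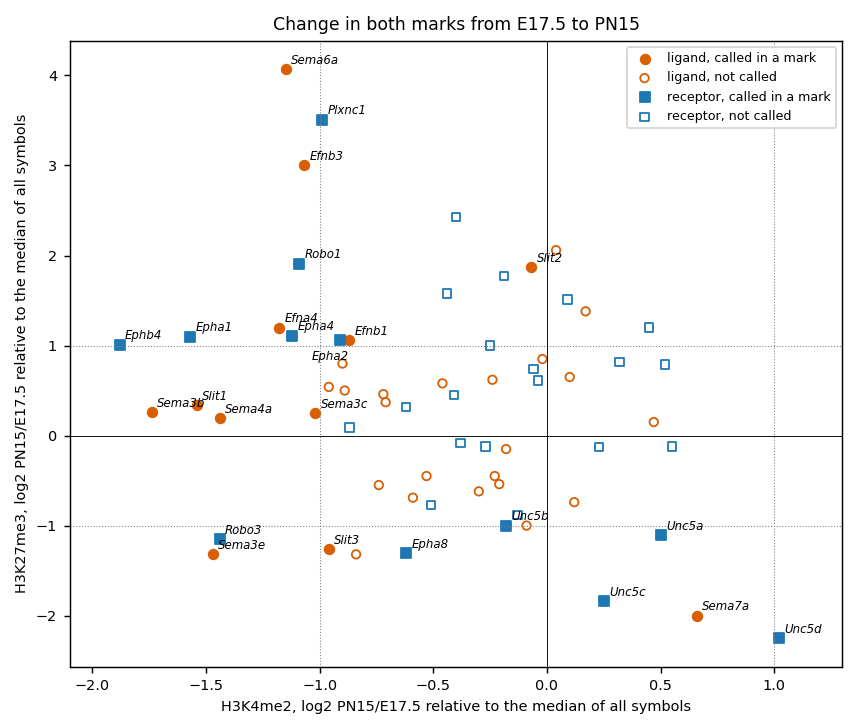
Change in H3K4me2 (x axis) and in H3K27me3 (y axis) from E17.5 to PN15, log2 relative to the median of all symbols, for ligands (circles) and receptors (squares), filled and named where called in a mark, with dotted lines at a 2-fold change. Efna5, listed at 0 for H3K27me3 at E17.5, is not drawn. Sema6a, Plxnc1 and Efnb3 have the largest H3K27me3 changes plotted (4.07, 3.51 and 3.0), and Unc5d lies at the lower right (1.02 and -2.25).

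The ligands are described first. Among the semaphorins, which mostly repel axons, 5 of 20 had lower H3K4me2 (25%, against 7.58% of all symbols) and none higher, and H3K27me3 was higher in 1 and lower in 1 (5.0% each, against 1.88% and 7.42%), with 7 that could be called. Sema6a, a transmembrane semaphorin, had H3K4me2 values of 151, 77, 156 and 74 and H3K27me3 values of 5, 8, 65 and 100 in stage order. Its H3K4me2 at E17.5 was the highest of all members, and its H3K27me3 was below background at both early stages and above it at both later ones (change 4.07, or 3.39 with 5 added to the values in place of 1). Sema7a, a membrane-anchored semaphorin that promotes axon growth, went the other way, with H3K27me3 values of 67, 92, 38 and 16 (change -2.00) and H3K4me2 values of 47, 44, 77 and 82 (change 0.66, not called). Of the secreted class 3 semaphorins, 3 of 7 were called, each with lower H3K4me2. Sema3b had H3K4me2 values of 54, 31, 8 and 17 (change -1.74). Sema3e had H3K4me2 values of 52, 31, 32 and 20 (-1.47). Sema3c had H3K4me2 values of 47, 39, 23 and 25 (-1.02), a call that was lost with 5 added and without centring. Each of them was lower at PN15 than at E17.5 and PN1. Sema4a, whose loss is known to cause photoreceptor degeneration, had H3K4me2 values of 66, 44, 29 and 26 (-1.44) at its strongest entry, and the weakest of its 4 entries had 24, 21, 5 and 11. These 4 genes had no H3K27me3 above background at E17.5 or PN15. In Sema6b the entry used had H3K27me3 values of 56, 70, 29 and 36, and its other entry 22, 20, 17 and 13, so the presence of H3K27me3 at E17.5 held for 1 of its 2 start sites. The remaining semaphorins were not called in either mark, and among them Sema6d had H3K27me3 values of 121, 146, 157 and 83, the most of these at the first 3 stages, and Sema5b 55, 89, 64 and 85.

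The ephrins, which are bound to the membrane of the cell that presents them, had H3K27me3 called higher in 3 of 8 (37.5%, against 1.88% of all symbols) and lower in none, with 5 that could be called, and H3K4me2 lower in 2 (Efna4 and Efnb3, 25% against 7.58%) and higher in none. Efnb3 had H3K27me3 values of 8, 12, 38 and 71 (change 3.0) and H3K4me2 values of 66, 47, 45 and 34 (-1.07, not called with 5 added or without centring). Efnb1 had H3K27me3 values of 32, 41, 60 and 68 (1.06) and H3K4me2 values of 44, 22, 54 and 26 (-0.87, not called). Efna5, a ligand that sets the position of ganglion cell axons in their targets, was listed at 0 for H3K27me3 at E17.5, a value held by only 30 of 25152 entries in that library, and at 13, 48 and 49 later. No fold is given for it, though it is counted among the 11 that were higher. Its H3K4me2 was 107, 82, 243 and 158, the highest of all members at PN15, so its H3K27me3 came above background beside high H3K4me2. Efnb2, a ligand of both nerve and vessel development, had H3K27me3 values of 5, 2, 28 and 24 below background and H3K4me2 values of 94, 71, 157 and 106. Efna3 was the ephrin with the most H3K27me3 throughout, at 173, 257, 176 and 126. Efna4 had H3K4me2 values of 59, 38, 43 and 28 (-1.18).

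The 3 Slit genes encode secreted repellents, and each had another pattern. Slit3 had H3K27me3 values of 371, 393, 416 and 154, the highest of the members at E17.5, and H3K4me2 values of 22, 9, 16 and 12. Its H3K27me3 change of -1.26 was close to the median of all symbols at that level (-1.24). Slit2, which is expressed by the inner retina and keeps ganglion cell axons in order, had H3K27me3 values of 13, 30, 60 and 50 (1.87) beside H3K4me2 values of 85, 51, 87 and 89. It came to carry both marks with no called change in H3K4me2 (-0.07). Slit1 had H3K4me2 values of 76, 36, 37 and 28 (-1.54) and H3K27me3 values of 55, 51, 74 and 70 (0.34, not called), above background at each stage. Of the netrins none was called in either mark. Ntn1, which is made at the optic disc and guides axons out of the eye, had H3K27me3 values of 258, 352, 274 and 176, the highest of the members at PN15, with H3K4me2 values of 69, 30, 81 and 45. Ntn1 carried both marks at each stage. Ntn4, a netrin of basement membranes, had H3K27me3 values of 41, 23, 83 and 72 and H3K4me2 values of 50, 35, 70 and 29. Ntn3 had H3K27me3 values of 33, 73, 58 and 43 and H3K4me2 values of 54, 32, 39 and 36. Its H3K27me3 lay within 2 units of the background at E17.5 and PN15, so that its switch to both marks rests on small differences. Ntn5 had H3K4me2 values of 8, 9, 5 and 5, at or near background, and H3K27me3 values of 7 to 13.

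Among the receptors, the Unc5 genes had lower H3K27me3 at PN15, and 3 of 4 fell below background. The mark was called lower in 4 of 4 from E17.5 to PN15, as it was in 7.42% of all symbols and in 39.0% of those whose larger value was above background. Unc5d had H3K27me3 values of 118, 130, 92 and 24 (change -2.25) and H3K4me2 values of 43, 34, 63 and 97 (1.02). Unc5c had H3K27me3 values of 42, 48, 56 and 11 (-1.84) and H3K4me2 values of 81, 57, 67 and 106 (0.25, not called). Unc5a had H3K27me3 values of 79, 83, 78 and 36 (-1.11) and H3K4me2 values of 59, 29, 83 and 92 (0.50, not called). In these 3 genes the H3K27me3 of PN15 was the only value below background, though the 36 of Unc5a is above the background of E17.5 (33.5). Unc5b, the Unc5 receptor of blood vessels, kept the mark above background, with H3K27me3 values of 195, 242, 189 and 97 (-1.0) and H3K4me2 values of 64, 30, 72 and 62 (-0.18, not called). The Unc5b change is at the threshold and near the median of all symbols at its level (-1.02), and with 5 added in place of 1 it was no longer called, and neither was the H3K4me2 of Unc5d (0.97). The H3K27me3 values of E17.5, PN1 and PN7 lay close together in each gene and the fall lay between PN7 and PN15. In that step 3 of 4 were called lower, as were 4.58% of all symbols and 26.5% of those whose larger value was above background. The summed H3K27me3 of the ganglion cell genes was also lower at PN15 (534) than at PN7 (1113), and the part of these cells in the Unc5 values was not tested. The family median from E17.5 to PN15 was -1.48 for H3K27me3 and 0.37 for H3K4me2. Unc5c (chr3:141128528-141497888), Unc5d (chr8:29757189-30329810), Unc5a (chr13:55050772-55107379) and Unc5b (chr10:60225358-60294329) lie on 4 different chromosomes of mm9.

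The Robo receptors differed from each other. Robo1 (chr16:72663394-73046340) had H3K27me3 values of 25, 29, 86 and 97 (1.91) and H3K4me2 values of 69, 55, 53 and 35 (-1.09), and went from H3K4me2 alone to both marks. Robo2, the Robo receptor most needed by ganglion cell axons, kept high H3K4me2 at 137, 80, 77 and 114 and had H3K27me3 values of 4, 4, 19 and 26, below background. Robo3, a receptor known from axons that cross the midline, had H3K27me3 values of 284, 357, 164 and 127 (-1.15) and H3K4me2 values of 56, 43, 45 and 22 (-1.44). Its H3K27me3 change was close to the median of all symbols at 200 or more. Robo4 had neither mark, with H3K27me3 values of 23, 12, 13 and 12. Slit2 and its receptor Robo1 thus both came to carry H3K27me3 above background at PN7 and PN15, while Robo2 did not.

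**Figure D4:**
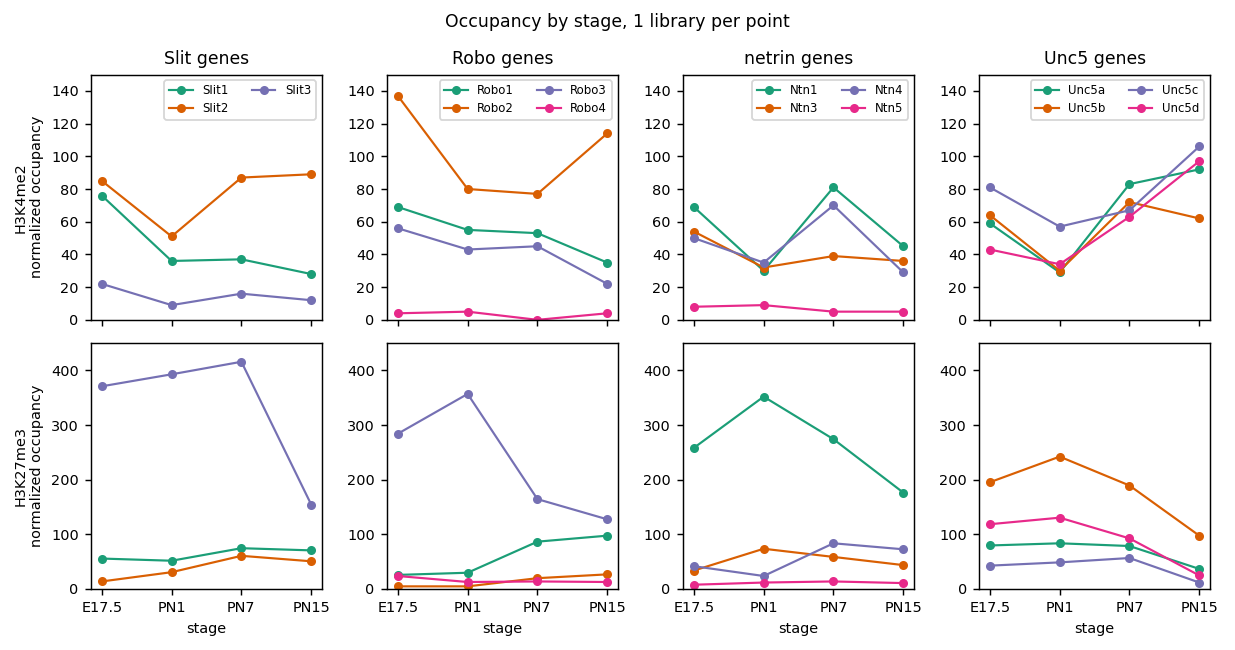
Normalized occupancy of H3K4me2 (upper row) and H3K27me3 (lower row) by stage for the Slit, Robo, netrin and Unc5 genes, 1 line per gene and 1 library per point. H3K27me3 of Robo1 is higher at PN7 and PN15 (86 and 97) than before (25 and 29), and H3K27me3 of Unc5d is lower at PN15 (24) than at the 3 earlier stages (92 to 130).

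The plexins, the signalling receptors of the semaphorins, had 1 call in 9 genes, a higher H3K27me3 in Plxnc1, the receptor of Sema7a (11.1%, against 1.88% of all symbols), with 4 that could be called. Plxnc1 (chr10:94253617-94407212) had H3K27me3 values of 7, 8, 82 and 90 (3.51) and H3K4me2 values of 86, 45, 83 and 47 (-0.99, just short of a call). Ligand and receptor were opposite here, since Sema7a had its H3K27me3 at E17.5 and PN1 and Plxnc1 at PN7 and PN15. Plxna1 came above the H3K27me3 background by a small margin, with 46 and 45 at PN7 and PN15 after 25 and 34. Plxna2, a receptor of Sema6a, had H3K4me2 values of 88, 55, 74 and 142 and H3K27me3 values of at most 12. Plxna4 had H3K27me3 values of 87, 89, 105 and 82 and was not called.

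Of the Eph receptors, 4 of 14 had higher H3K27me3 (28.6%, against 1.88% of all symbols) and 1 lower (7.14% against 7.42%), with 7 that could be called, and 3 had lower H3K4me2 (21.4% against 7.58%) and none higher. Epha4, which binds ephrins of both classes, had H3K4me2 values of 122, 77, 139 and 61 (-1.12) and H3K27me3 values of 49, 49, 120 and 107 (1.11). Ephb4, known from veins, had H3K4me2 values of 103, 56, 53 and 30 (-1.88, the lowest change of the members) and H3K27me3 values of 57, 107, 101 and 116 (1.01). Epha1 had H3K4me2 values of 26, 16, 6 and 9 (-1.57) and H3K27me3 values of 59, 81, 153 and 128 (1.10), and was the only member to end with H3K27me3 alone, its last H3K4me2 value being just below the background of 9.54. The fourth, Epha2, had H3K27me3 values of 36, 58, 46 and 76 (1.06) and H3K4me2 values of 66, 44, 58 and 38 (-0.91, not called). The H3K27me3 calls of Epha2, Ephb4 and the ephrin Efnb1 were lost with 5 added to the values. Epha8 had H3K27me3 values of 255, 236, 57 and 102 (-1.31) and H3K4me2 values of 48, 33, 61 and 34. Epha10, a receptor without kinase activity, had H3K27me3 values of 203, 180, 210 and 119 and was not called. Epha5 and Epha7, receptors of ephrin-A ligands in retinal axon mapping, were among the 5 members with the most H3K4me2 at PN15. Epha5 had H3K4me2 values of 89, 72, 63 and 115 and H3K27me3 values of 11, 3, 8 and 10. Epha7 had H3K4me2 values of 84, 64, 110 and 133, and its H3K27me3 values of 10, 20, 46 and 18 passed background at PN7 alone.

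By neighbouring stages, the H3K27me3 of the members was called higher most often between PN1 and PN7 and lower most often between PN7 and PN15. Over all symbols the most higher and the most lower calls fell in the same steps. From E17.5 to PN1 it was called higher in 2 members, Sema3c and Ntn3 (0.22% of all symbols and 1.29% of those above background), and lower in none (0.0499% and 0.292%). From PN1 to PN7 it was higher in 9, which were Sema6a, Plxnc1, Epha1, Epha4, Epha7, Efna5, Slit2, Robo1 and Ntn4 (1.26% of all symbols and 7.2% of those above background), and lower in 3, Sema6b, Sema7a and Epha8 (1.18% and 6.72%). From PN7 to PN15 it was higher in none (0.669% and 3.87%) and lower in 5, Epha7, Slit3, Unc5a, Unc5c and Unc5d (4.58% and 26.5%). These 5 were 7.58% of the members, and 34 members could be called in that step, so lower calls were no more common among them than among comparable symbols. Directly from PN1 to PN15, without the PN7 library, it was higher in 7, which were Sema6a, Plxnc1, Epha4, Efna5, Efnb3, Robo1 and Ntn4 (1.45% of all symbols and 8.26% of those above background), and lower in 9, the Unc5 genes among them (8.78% and 49.9%), with 36 members that could be called. For H3K4me2 the first step called 0 members higher (1.18% of all symbols) and 1 lower, Sema6b (0.683%). The steps through PN7 called 33 higher and 1 lower from PN1 to PN7 (13.6% and 4.22% of all symbols), then 0 higher and 38 lower from PN7 to PN15 (5.01% and 13.6%). The median of all symbols shifted by -0.50 and 1.0 in these steps, and without taking it off the counts were 12 higher and 2 lower, then 4 higher and 5 lower. The shares of all symbols without taking it off are not given, so these counts describe the members alone. Directly from PN1 to PN15, 2 members were higher and 8 lower (3.83% and 5.63% of all symbols). The large H3K4me2 counts were thus seen in the steps that use the PN7 library.

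Other genes of the pathway were read in the same way. Of 19 co-receptors, adhesion molecules and other cues, H3K4me2 was lower in 4 (21.1%, against 7.58% of all symbols) and higher in none, and H3K27me3 was higher in 3 (15.8% against 1.88%) and lower in 5 (26.3% against 7.42%). Only in 12 of the 19 was the larger H3K27me3 value above background, so that a change could be called. Of the symbols that could be called, 39.0% were lower and 9.87% higher. Both marks were present in 11 (57.9%, against 15.6% of all symbols) at E17.5 and 8 (42.1% against 10.9%) at PN15. Dcc, the attractive netrin receptor, was not called and had H3K4me2 values of 85, 56, 74 and 114 and H3K27me3 values of 16, 22, 14 and 23. Nrp2, a co-receptor of class 3 semaphorins, had H3K27me3 values of 203, 236, 215 and 95 (-1.09), while Nrp1 had 42, 32, 23 and 57 and was not called. Flrt2, a ligand of Unc5d, was opposite to its receptor, with H3K27me3 values of 36, 61, 118 and 78 (1.09) and H3K4me2 values of 97, 63, 45 and 46 (-1.19). Flrt1 moved as Flrt2 did (2.09 for H3K27me3 and -1.82 for H3K4me2). Flrt3 was not called in either mark (-0.16 and -0.11). Of 30 intracellular effectors such as Rhoa, Rac1 and Cdc42, both marks were present in 5 (16.7%) at E17.5 and 3 (10.0%) at PN15, near the shares of all symbols, and H3K27me3 was higher in 1 and lower in 2 of the 6 that could be called. H3K4me2 was lower in 3 of the effectors, Chn2, Mical1 and Mical3 (10.0%, against 7.58% of all symbols), and higher in none. The combination of marks was thus seen in the cues and receptors at the cell surface more than in the proteins that act below them, a difference that was not tested.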

How the data were processed

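ChIP-Seq of H3K4me2 and of H3K27me3 in wild type retina gave 1 library at each of 4 stages. The authors mapped reads with Bowtie 0.12.4 to mm9 (versions per the labels), assumed fragments of 190 bp, and summed read midpoints in a window of 2.5 kb on both sides of every RefSeq TSS. Values are deposited as scores, these sums normalized by the authors to mapped reads and rounded to whole numbers. They are not counts and keep no depth, so no count model, interval or test was used. Of 10 samples, 2 (H3K4me2 of rd1/rd1 retina and anti-GFP) had no column and were not analysed here. The H3K27me3 column of PN7 carries a letter b. Marks were taken from the sample titles, since the product numbers of the antibodies are exchanged between labels and methods, a doubt that was not settled here. Leaving out promoters far from an annotated start was an alternative chosen after seeing the data.

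For a symbol with several entries the one with the largest sum over the 8 libraries was used. Changes had 1 added to both values and were taken relative to the median of all symbols. Calls needed a ratio of 2 and a larger value above the 99th percentile of olfactory receptors. Named were every Slit, Robo, netrin and Unc5 gene, up to 6 called rises and falls and the 5 highest values for each mark, genes whose marks switched, and genes whose entries differed. Further members and pathway genes were named after their values were seen. Some marker genes are not reported here and were left out of the marker sums. The members and lists were chosen with earlier results of these data known. Gene positions are from GENCODE vM1 on mm9 and cover 65 of the 66 members, and Efna5 had no single record. Promoters are from RefSeq (GRCm38.p6). Alternatives were 5 added in place of 1, no centring, the mean over entries, no filter on low values, the 95th percentile of olfactory receptors, the 99th percentile of 298 vomeronasal receptors and a ratio of 1.5. The steps were tested on simulated data. The software was Python 3.11.15, matplotlib 3.10.9, scipy 1.17.1, pandas 2.3.3 and numpy 2.4.6.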

Additional observations from a re-analysis of the deposited data

How the results depend on the processing

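No paired analysis was possible because each mark and stage had 1 library, and the PN7 stage was left out by going from PN1 to PN15 directly. No median turned its sign, and neither did the change of a gene named for a called rise or fall in that mark. The H3K4me2 change of Slit2, which was not called, was -0.07 as reported and 0.07 without centring. Of the values recomputed for the comparisons, 134 stayed within 1.5 times the reported count (medians within 0.1) while 32 moved. From E17.5 to PN15, H3K4me2 was called higher in 0 members with 5 added (1.89% of all symbols) and in 2 at a ratio of 1.5 (8.58%). It was lower in 28 at 1.5 (13.5% of all symbols), and the median of the members was -0.27 without centring. H3K27me3 was higher in 20 without the filter on low values (12.2% of all symbols). For the steps between neighbouring stages, the shares of all symbols at these settings are not given, so those counts describe the members alone. For H3K4me2 between neighbouring stages, lower calls from E17.5 to PN1 were 9 without centring or at 1.5, and 0 with the mean over entries. From PN1 to PN7, 12 were higher and 2 lower without centring, 2 lower without the filter and at 1.5, and 2 higher and 8 lower from PN1 to PN15 directly, where lower calls thus outnumbered higher ones. From PN7 to PN15, 4 were higher and 5 lower without centring, and 1 higher without the filter. For H3K27me3, E17.5 to PN1 gave 6 higher and 3 lower without the filter, and 6 higher and 1 lower at 1.5. PN1 to PN7 gave 15 higher without the filter and 14 at 1.5, and from PN1 to PN15 directly 7 were higher and 9 lower, again with lower calls in excess. PN7 to PN15 gave 5 higher and 8 lower without the filter, and 4 higher and 10 lower at 1.5. Members with neither mark were 1 at E17.5 with the 95th percentile or the vomeronasal background and 2 at PN1 with the 95th percentile, and H3K4me2 alone at PN7 was 20 with the vomeronasal background. The cause was not tested, beyond what a looser ratio, filter or background admits by construction. Low H3K27me3 values depend most on the value added, and the change of Sema6a was 4.07 as reported and 3.39 with 5 added.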
